A study of Mus musculus with 2 samples.

Results

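The genes described here encode the SR proteins, the heterogeneous nuclear ribonucleoproteins (hnRNPs) and the related Tra2 proteins. They were taken by symbol, as every protein-coding gene named Srsf with a number, Hnrnp with a suffix, Tra2a or Tra2b that had a count in either library. This gave 32 genes, 10 Srsf, 20 Hnrnp and 2 Tra2, of 17859 annotated genes with counts. All 32 had counts in both libraries, and Srsf12 was the 1 annotated gene of the same naming without any. The samples were gastrocnemius, the large calf muscle, of male B6CASTF1/J mice, the first-generation cross of a C57BL/6J and a CAST/EiJ parent, at 4 days of age. There was 1 group of 2 biological replicates, each made from 2 µg of total RNA and read as full-length cDNA, so that 1 count stands for 1 long read assigned to 1 transcript model. The labels list separate biosamples under a single donor entry, and no treatment or second tissue was present. The spread between the libraries may therefore be partly technical, and the tests below compare 2 libraries, not conditions.

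SR proteins bind exonic enhancers through RNA recognition motifs and recruit the splicing machinery through domains rich in arginine and serine, while many hnRNPs bind silencers or introns and oppose exon use. Both families also control export, stability and translation of mRNA. Many of their own genes carry a poison exon, a cassette exon with a stop codon in frame, and inclusion of it sends the mRNA to nonsense-mediated decay. In muscle, splicing is remodelled around birth, when fetal isoforms of contractile and calcium-handling genes give way to adult ones.

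The sequences of poison exons that results below turn on are given first, from the first base of the exon to its stop codon, from the GENCODE M21 transcripts of the mm10 assembly. The stop codon that ends the reading frame of the annotated decay model is in capitals.
Srsf4 poison exon, chr4:131884276-131884390, + strand: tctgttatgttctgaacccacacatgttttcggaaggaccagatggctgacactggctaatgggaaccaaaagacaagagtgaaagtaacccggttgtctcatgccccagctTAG
Srsf11 poison exon of 117 bases, chr3:158023310-158023359, - strand: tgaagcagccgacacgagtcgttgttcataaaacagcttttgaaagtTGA
Srsf11 poison exon of 109 bases, chr3:158024209-158024231, - strand: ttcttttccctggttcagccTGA
Srsf3 poison exon, chr17:29039454-29039487, + strand: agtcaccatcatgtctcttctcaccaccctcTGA
Srsf9 poison exon, chr5:115328347-115328428, + strand: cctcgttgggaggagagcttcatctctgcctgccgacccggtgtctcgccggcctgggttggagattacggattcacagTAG
Tra2b poison exon, chr16:22259181-22259261, - strand: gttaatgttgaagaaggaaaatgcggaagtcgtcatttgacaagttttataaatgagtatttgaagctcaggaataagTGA

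A second set of exons, in the hnRNP A, B and D genes, was used in only part of the molecules, and these are coding exons that keep the frame. They were found by their inclusion, and are shown whole because the 3 longer ones share a composition. Whole in-frame TAT and TAC codons, which specify tyrosine, are in capitals.
Hnrnpd 147-base exon, chr5:99963731-99963877, - strand: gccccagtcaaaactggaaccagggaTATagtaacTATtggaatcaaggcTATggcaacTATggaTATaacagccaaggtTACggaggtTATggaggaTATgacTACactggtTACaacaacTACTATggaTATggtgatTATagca
Hnrnpab 141-base exon, chr11:51601750-51601890, - strand: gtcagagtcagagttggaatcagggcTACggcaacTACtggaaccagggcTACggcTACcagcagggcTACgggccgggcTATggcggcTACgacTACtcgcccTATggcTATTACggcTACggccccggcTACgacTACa
Hnrnpa2b1 120-base exon, chr6:51464428-51464547, - strand: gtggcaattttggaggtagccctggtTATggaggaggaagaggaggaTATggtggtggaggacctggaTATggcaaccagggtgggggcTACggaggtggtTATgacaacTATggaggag
Hnrnpd 57-base exon, chr5:99976534-99976590, - strand: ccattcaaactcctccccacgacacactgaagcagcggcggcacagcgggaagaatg
Hnrnpa2b1 36-base exon, chr6:51467391-51467426, - strand: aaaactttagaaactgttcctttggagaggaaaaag

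The 147-base exon of Hnrnpd held 14 such codons of 48, or 29.2%, against 2.28% of the codons in the rest of the coding sequence. The 141-base exon of Hnrnpab held 14 of 46, or 30.4%, against 2.45% elsewhere in the gene. The share was 15.4% (6 of 39) in the 120-base exon of Hnrnpa2b1 against 5.10% elsewhere. The 57-base exon of Hnrnpd and the 36-base exon of Hnrnpa2b1 held no whole in-frame tyrosine codon, nor did the 36-base coding exon of Srsf7, which is not shown.

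The libraries held 1066347 counts in replicate 1 and 1100253 in replicate 2, of which 93.7% and 93.3% lay on annotated genes. Levels are given in CPM, counts scaled to a library of 1e6 annotated counts, and are not divided by length because 1 count is 1 long read. Whether reads repeat the same molecule or favour some transcript lengths was not tested. Where molecules are named, they are counted as reads. A count of 0 allowed up to 3.00 CPM in replicate 1 and 2.92 CPM in replicate 2, at 3 counts, and intervals and limits cover counting error only. All 8 skeletal muscle markers were present in both libraries, summing to 88214 and 101282 CPM. The 8 epidermal markers held 4 counts in replicate 1, with 7 of them at 0 (Krt1, Krt5, Krt14, Krt15, Krt17, Lor and Perp), and 1085 counts in replicate 2. Schwann cell markers summed to 1426 and 3452 CPM, and fibroblast markers to 35080 and 23095 CPM. Endothelial markers summed to 332 and 386 CPM, blood markers to 207 and 330.3 CPM and markers of dividing cells to 75.1 and 106 CPM, and all markers of these lists were detected in both libraries. The part of this difference in tissue make-up in the library differences below was not tested. In bulk tissue, fewer cells of a type and less RNA per cell cannot be told apart.

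Together the 32 genes held 4909 counts in replicate 1 and 5664 in replicate 2, or 0.492% and 0.552% of annotated counts. Their summed level was 5217 ± 427 CPM (SD, n = 2). The hnRNP genes made up 3981 ± 369 CPM of it, the SR genes 1214 ± 52.0 CPM and the Tra2 genes 22.2 ± 5.86 CPM. The median member had 116 CPM, and the median of the 14734 protein-coding genes with counts was 15.7 CPM. Members ranged over more than 2 orders of magnitude, with hnRNP genes at both the top and near the bottom of the order.

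Hnrnpk (ENSMUSG00000021546.18, chr13:58391142-58403343) had the highest level. It encodes a poly(C)-binding KH-domain protein, and it had 693 CPM in replicate 1 and 824 CPM in replicate 2. Hnrnpa2b1 (ENSMUSG00000004980.16, chr6:51460932-51469894), which encodes the A2 and B1 proteins of the core hnRNP particle, followed with 511 and 699 CPM. Hnrnpu, whose product binds RNA and chromatin, had 533 and 446 CPM. The order of Hnrnpa2b1 and Hnrnpu was thus opposite in the 2 libraries, so these neighbours in rank did not differ beyond their spread, while Hnrnpk lay above Hnrnpa2b1 in both. Hnrnpf, a binder of G-rich runs, had 420 and 388 CPM. Hnrnpd, known as AUF1 for binding AU-rich elements, had 269 and 314 CPM. The values of Hnrnpf in both libraries lay above those of Hnrnpd.

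Srsf2 (ENSMUSG00000034120.18, chr11:116849901-116853094), also called SC35, was the highest SR gene with 253 CPM in replicate 1 and 283 CPM in replicate 2. It stood sixth among all members, ahead of Hnrnpa1 with 184 and 214 CPM and Hnrnpl with 177 and 217 CPM. Hnrnpa1 is the best known antagonist of SR proteins at splice site choice, and Hnrnpl binds CA repeats. The order of Hnrnpa1 and Hnrnpl turned between the libraries. Hnrnpab, Hnrnpa3, Hnrnpr, Hnrnph2 and Hnrnpdl averaged between 115 and 169 CPM, Hnrnpul1, Hnrnpc, Hnrnpll and Hnrnph1 between 46.4 and 87.7 CPM, and Hnrnpm and Hnrnph3 29.1 and 24.7 CPM. The other SR genes lay close together. Srsf5, Srsf3, Srsf6 and Srsf4 averaged between 125 and 150.2 CPM, and Srsf7, Srsf9, Srsf1, Srsf11 and Srsf10 between 60.8 and 88.3 CPM.

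The lowest members were read by few molecules. Tra2b, which binds GAA-rich enhancers, had 14 counts in replicate 1 and 23 in replicate 2, and its paralog Tra2a had 4 and 4. Hnrnpa0 had 11 and 6 counts, and Hnrnpul2 had 19 and 2. Tra2a was the 1 member with fewer than 10 counts in sum and was not tested between libraries.

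**Figure D1:**
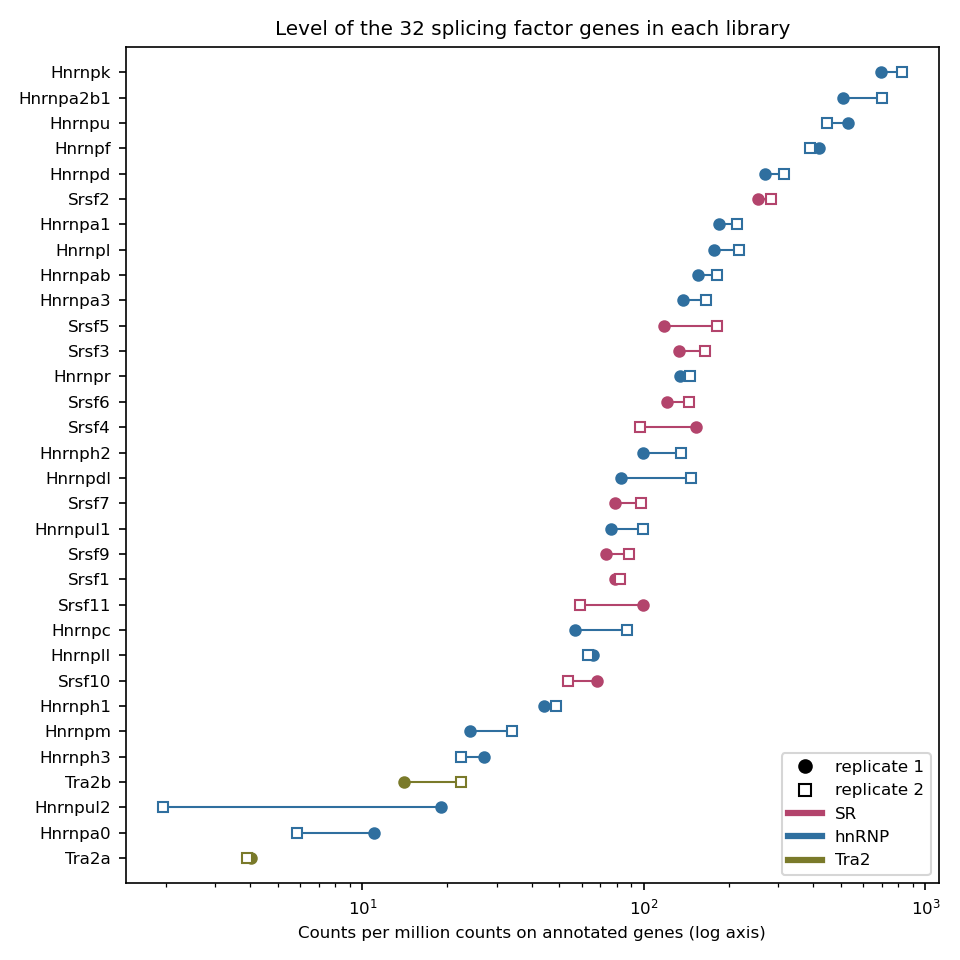
Level of each of the 32 genes in CPM (log axis), one row a gene, with filled circles for replicate 1, open squares for replicate 2 and colour for the family. Hnrnpk stands highest at 759 CPM on average and Tra2a lowest at 3.95 CPM; the widest gap between libraries is that of Hnrnpul2.

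Counts of Hnrnpa3 need care. Of the annotated pseudogenes whose closest coding transcript was a member's, 6 copies of Hnrnpa3 together held 78 counts in replicate 1 and 128 in replicate 2, against 137 and 171 counts on Hnrnpa3 itself. The copy Gm5641 held 62 and 93 of these and matched the Hnrnpa3 transcript at 100% identity over 1488 bases. The level of Hnrnpa3 is therefore uncertain by the amount of these counts. Pseudogenes of the other members held at most 3 counts in a library.

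Between the libraries, 7 of 31 members tested (22.6%) differed at an adjusted p under 0.05 in a two-sided Fisher's exact test with Benjamini-Hochberg adjustment over all 11027 genes with at least 10 counts. Over all these genes 9.74% were called, 4.49% higher and 5.25% lower in replicate 1. The share called rises with depth, and members are deep: among genes with at least 50 counts in sum, 18.3% of all genes and 7 of 28 members were called. Of the members, 3 were higher and 4 lower in replicate 1. The ratio was below 0 for 22 of 31 members (71.0%), and for 18 of the 24 members without a call, against 48.7% of all genes tested, and the median log2 ratio of replicate 1 over replicate 2 was -0.23 for members and 0.04 for all genes tested.

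Srsf4 (ENSMUSG00000028911.16, chr4:131873617-131901706) had 153 counts in replicate 1 and 99 in replicate 2, a log2 ratio of 0.66 (adjusted p = 0.0062 by the exact test). Srsf11, which encodes an SR-related protein, had 99 and 61 counts, a log2 ratio of 0.73 (adjusted p = 0.021 by the exact test). Both were higher in replicate 1. They are also among the members with the 10 largest shares of decay models, described below. So are Hnrnpdl and Srsf5, which were called lower in replicate 1.

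Hnrnpa2b1 was lower in replicate 1, with 510 counts in replicate 1 and 717 in replicate 2 and a log2 ratio of -0.45 (adjusted p = 3.0e-06 by the exact test). It lost this call when incomplete and genomic models were set aside (log2 ratio -0.27, adjusted p = 0.12). Srsf5 had 118 and 187 counts, a log2 ratio of -0.62 (adjusted p = 0.0049 by the exact test). Hnrnpdl, a relative of Hnrnpd, had 83 and 151 counts, a log2 ratio of -0.82 (adjusted p = 0.00076 by the exact test). Hnrnpk had 692 and 846 counts, a log2 ratio of -0.25 (adjusted p = 0.012 by the exact test). All 4 of them were lower in replicate 1 by less than 2-fold.

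The call of Hnrnpul2, 19 counts in replicate 1 against 2 in replicate 2 with a log2 ratio of 3.00 (adjusted p = 0.0024 by the exact test), rests on the gene identifier that reads were given. Of the 19 counts, 17 lay on unspliced models within the last exon, at chr19:8831455-8834143. In replicate 2 that stretch held 11 unspliced counts under AC129217.1, an overlapping gene on the same strand, and none under Hnrnpul2. With those counts added, Hnrnpul2 had 19 and 13 counts, a log2 ratio of 0.57 (adjusted p = 0.62 by the exact test).

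These tests take counting error as the only error. With edgeR's exact test and a preset biological coefficient of variation of 0.1, 1 member, Hnrnpul2, stayed under an adjusted p of 0.05, where 1.56% of all genes did, and with 0.2 none did, where 0.508% of all genes did.

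**Figure D2:**
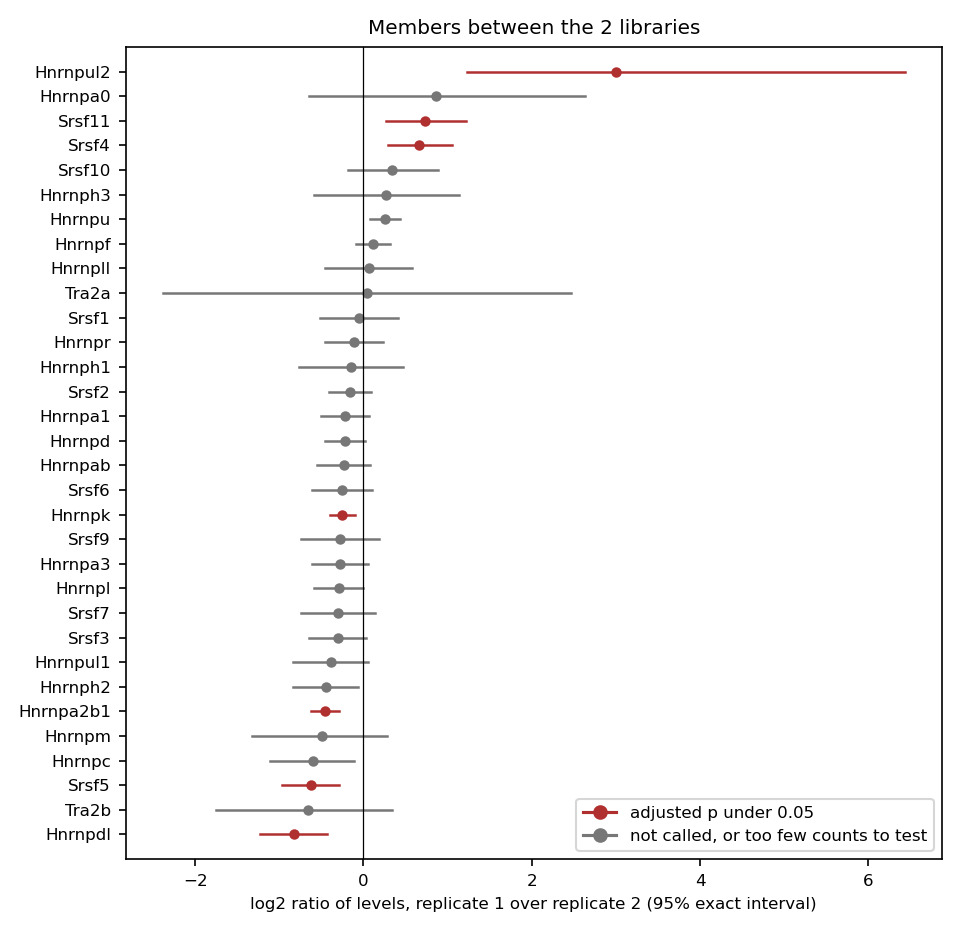
Ratio of levels, replicate 1 over replicate 2, on the log2 scale for each of the 32 genes (points) with 95% exact intervals of counting error (lines); genes with an adjusted p under 0.05 are in red. Srsf4, Srsf11 and Hnrnpul2 lie above 0 and Hnrnpk, Hnrnpa2b1, Srsf5 and Hnrnpdl below it.

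The second measure was the share of a gene's counts on models that are annotated as subject to nonsense-mediated decay, annotated as retaining an intron, or that hold a poison exon, in short the decay share. A poison exon was counted as an internal exon found in an annotated decay model of the gene and in none of its protein-coding models. A retained intron was counted only where the model is annotated so, whereas poison exons were also counted in unannotated models. Members had 164 of 4909 counts on such models in replicate 1 (3.34%, 95% Clopper-Pearson interval 2.86 to 3.88%) and 164 of 5664 in replicate 2 (2.90%, 2.47 to 3.37%). All other protein-coding genes had 1.08% and 1.17%, and those of them with an annotated model of this kind 1.69% and 1.86%. The SR genes carried the higher share, 9.78% (8.14 to 11.6%) and 7.94% (6.52 to 9.56%). The hnRNP genes had 1.29% (0.954 to 1.71%) and 1.38% (1.05 to 1.77%), so the intervals of the 2 families did not overlap in either library. Srsf4 alone supplied 52 and 36 of the 115 and 102 such counts of the SR genes, and without it the SR share was 6.16% and 5.57%.

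By gene, 28 members had at least 20 counts in each library. The decay share was at least 5% in both libraries in 8 of them (28.6%), where 5.88% of all 6034 protein-coding genes with this depth and 8.33% of the other genes with an annotated model of this kind reached it. The median share was 2.25% over the members and 0% over the other genes. Such models were annotated for 82.1% of the 28 members and 69.4% of the other genes. The share was 0 in both libraries for 9 members, 8 of them hnRNP genes. For Hnrnpf, with 419 and 398 counts, the upper end of the interval was 0.877% and 0.923%, whereas for Hnrnpm, with 24 and 35 counts, it was 14.2% and 10.0%.

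Srsf4, also called SRp75, had the highest decay share, with 52 of 153 counts in replicate 1 (34.0%, 26.5 to 42.1%) and 36 of 99 in replicate 2 (36.4%, 26.9 to 46.6%). This rank rests on counting unannotated models by their poison exons. With annotated types only Srsf4 had 0.327% on average, against 13.1% for Hnrnpdl and 9.19% for Srsf1. With exons that hold a whole intron of a coding model added it had 35.5%, against 99.4% for Srsf1 and 86.0% for Srsf5. That last definition takes introns of any coding model, untranslated ones too. An entire annotated coding sequence lay in 67.1% and 63.1% of Srsf1 counts. The next gene, Hnrnpdl, had 19.3% and 11.3%, and its interval lay below that of Srsf4 in replicate 2 and overlapped it in replicate 1. The annotation has 3 poison exons in a row in the first intron of Srsf4, the first of which holds the stop codon shown above. These 3 were used as a unit. All 3 together lay in 49 counts in replicate 1 and 32 in replicate 2 (32.03% and 32.32% of the gene), none of them in 102 and 63 counts, and only some of them in 2 and 4 counts.

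The first exon of the row, 207 bases long, was included in 34.5% and 37.4% of the counts that include or skip it. The second (184 bases) was included in 30.1% and 34.1%, and the third in its 174-base form in 33.1% and 35.9%. A 137-base form of the second exon, which starts 47 bases further in and is outside the annotation, was in 8.65% and 6.45%. Each form was set against counts that skip it, without those of the other form. The chain that joins the 3 exons to the full coding part of the gene is itself not annotated as a whole. It had 9 exons and 35 and 27 counts, second in the gene to the coding model Srsf4-202 with 91 and 57.

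**Figure D3:**
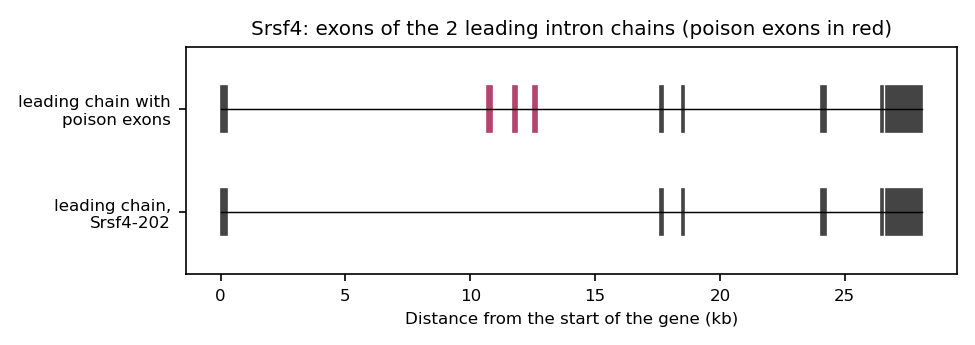
Exons (boxes) and introns (lines) of the 2 intron chains of Srsf4 that lead in counts with and without poison exons, by distance from the start of the gene in kb. The 3 poison exons (red) lie in a row in the first intron; the upper chain had 35 counts in replicate 1 and 27 in replicate 2, the lower one 91 and 57.

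Of the other SR genes, Srsf11 had a decay share of 12.1% in replicate 1 and 14.8% in replicate 2 (12 of 99 and 9 of 61 counts). Its 117-base poison exon was included in 7.32% and 15.6% of informative counts and its 109-base one in 7.32% and 4.65%. Srsf1, the founding member known as SF2/ASF, had 12.7% and 13.1% (10 of 79 and 11 of 84 counts). In Srsf1 7 and 8 of these lay on retained-intron models and 3 and 3 on models with its poison exon. Srsf7, whose product shuttles and promotes mRNA export, had 7.59% and 12% (6 of 79 and 12 of 100), of which 6 and 10 counts lay on retained-intron models. The SR shares thus came from both kinds of model, poison exons in Srsf4 and Srsf11 and retained introns in Srsf1 and Srsf7.

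Srsf3, a small SR protein that also acts in export and 3' end formation, had 10.5% and 7.69% (14 of 133 and 13 of 169). Its 456-base poison exon was included in 10.8% and 7.59% of informative counts. Srsf9 had 8.22% and 5.49% (6 of 73 and 5 of 91), all on models with 1 or both of its poison exons. Srsf5 had 5.93% and 3.21% (7 of 118 and 6 of 187), all on retained-intron models. Unannotated Srsf5 chains that lack 1 intron of their nearest coding model and have none of their own are not in this share. They included chains with 32 and 14, 12 and 7, and 5 and 5 counts. An unannotated Srsf7 chain that lacks 2 such introns, with 13 and 8 counts, is left out of the Srsf7 share likewise. Srsf6 had 3.31% and 1.35%, Srsf2 1.58% and 2.76%, and Srsf10 none. Tra2b, below the depth limit, had 1 of 14 and 2 of 23 counts with the poison exon shown above.

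Among hnRNP genes the decay share was at least 5% in both libraries in Hnrnpdl and Hnrnpa1. Hnrnpdl had 19.3% (11.4 to 29.4%) in replicate 1 and 11.3% (6.70 to 17.4%) in replicate 2. The counts behind these values, 16 of 83 and 17 of 151, were nearly equal, whereas its leading coding model Hnrnpdl-202 had 25 and 84 counts. The 105-base exon downstream of the stop codon was included in 37.2% (23.0 to 53.3%) and 14.9% (8.93 to 22.8%) of informative counts. This exon had an unadjusted p of 0.0039 in the exact test and an adjusted p of 1. Hnrnpa1 had 9.24% and 8.18% (17 of 184 and 18 of 220), all on models with a 76-base exon downstream of the stop codon. Hnrnph3 had 0 of 27 and 3 of 23 counts, so its mean of 6.52% rests on replicate 2 alone.

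Hnrnpl and Hnrnpll, paralogs that each have a poison exon, had 1.69% and 3.14%, and 6.06% and 3.08%. Hnrnpr had 2.99% and 2.01%. The 4 highest hnRNP genes lay at the other end, Hnrnpk with 0 and 2 counts on such models, Hnrnpa2b1 with 3 and 3, Hnrnpu with 1 and 3 and Hnrnpf with none. For Hnrnpk, 92.8% and 92.1% of counts lay on models with an intron outside the annotation, described below. These models carry no annotated type, and the gene has no annotated poison exon, so the decay share cannot class them. Over the 32 genes, 20 annotated poison exons in 14 genes had counts, of 27 such exons in 16 genes. In 12 of the 20 the stop codon lay in the exon and 8 lay downstream of it.

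The decay share was called different between the libraries in 0 of 28 members by the two-sided Fisher's exact test adjusted over 6034 genes. Over all these genes 0% were called. At an unadjusted p under 0.05 it was 0 members and 47 genes (0.779%). The interval of Srsf4 ran from 26.5 to 42.1% in replicate 1, so a difference of several percentage points was not detectable at this depth.

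**Figure D4:**
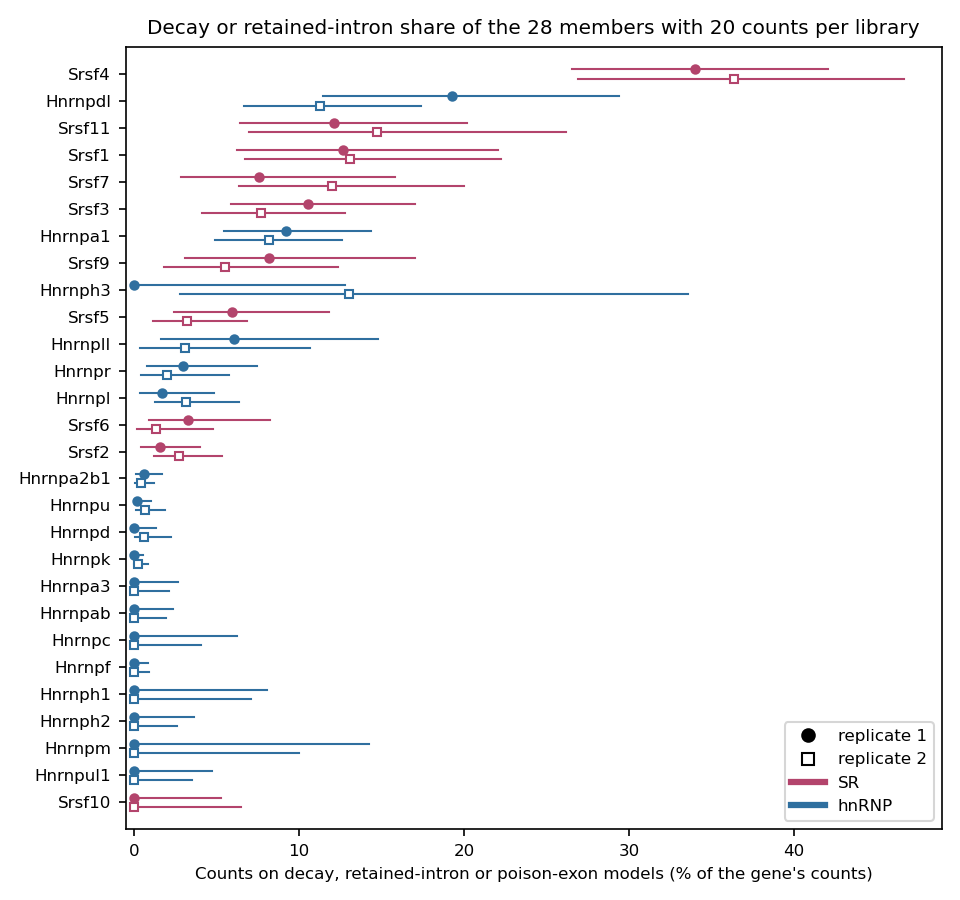
Share of each gene's counts on decay, retained-intron or poison-exon models in percent, for the 28 members with at least 20 counts in each library, with 95% Clopper-Pearson intervals (lines), filled circles for replicate 1 and open squares for replicate 2. Srsf4 stands alone at 34.0% and 36.4%, and 6 of the 8 genes at 5% or more in both libraries are SR genes.

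Cassette exons were followed as the percent of counts that include an internal exon among those that include or skip it. Where forms of an exon overlap, counts of another form are neither, so the percentages of such forms cannot be added. Among the 245 member exons read by 20 or more such counts in both libraries, 24 (9.80%) in 13 genes were included in 5 to 95% in both libraries, where 3.85% of 51314 exons of all protein-coding genes were. Of the 24, 8 were coding, 3 part coding, 5 untranslated, 6 found only in decay models and 2 outside the annotation. Inclusion was called different between the libraries in 0 of the 245, by the two-sided exact test adjusted over all 51314 exons, of which 5 were called (0.00974%). At an unadjusted p under 0.05 it was 3 member exons and 307 in all (0.598%).

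Hnrnpd used its 2 coding cassette exons in all 4 combinations. The 147-base exon was included in 56.1% of informative counts in replicate 1 and 60.6% in replicate 2, and the 57-base exon in 72.5% and 70.7%. Molecules that span both carried both exons in 40.7% and 43.8%, the 57-base exon alone in 31.8% and 26.8%, the 147-base exon alone in 15.1% and 18.4%, and neither in 12.4% and 11.0%. All 4 known forms of AUF1 were thus read in both libraries, in the same order.

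In Hnrnpa2b1 the 120-base exon was included in 63.7% (58.4 to 68.8%) and 61.5% (56.6 to 66.1%). The 36-base exon that sets B1 apart from A2 was included in 6.60% (4.13 to 9.92%) and 8.93% (6.30 to 12.2%). Molecules with the 120-base exon and without the 36-base one made up 59.2% and 53.6% of those that span both. Near the end of Hnrnpa2b1, an untranslated exon of 136 bases was included in 17.6% and 21.1%. A 73-base form of it, outside the annotation, was in 13.8% and 16.5%, and counts of the other form were left out of each.

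The 141-base exon of Hnrnpab was included in 18.7% in replicate 1 and 25.4% in replicate 2. Of the exons rich in tyrosine codons, those of Hnrnpd and Hnrnpa2b1 were therefore in most molecules and that of Hnrnpab in a minority, in both libraries.

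The other members with such exons were Hnrnpr, Hnrnph2, Hnrnpc, Hnrnph1 and Srsf7, beside the poison exons of Srsf3, Srsf4, Srsf11 and Hnrnpdl. In Hnrnpr a part-coding exon was included with a 3-base choice at its start. The 169-base form had 32 and 48 counts, the 166-base form 36 and 40, and 57 and 51 counts skipped the exon. Set against skips alone, the 169-base form was in 36.0% and 48.5% and the 166-base form in 38.7% and 44.0%. The 45-base untranslated exon of Hnrnph2 was included in 59.8% and 57.1%. The 26-base untranslated exon of Hnrnpc was in 53.5% and 46.5%, beside longer forms of 1223 and 530 bases at 10.2% and 7.05% on average. Counts of the other forms were left out of each of these Hnrnpc values. Hnrnph1, with few informative counts, had a 139-base coding exon at 95.0% and 80.0%. The 36-base coding exon of Srsf7 was included in 91.1% and 82.8%.

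Splice sites less than 100 bases apart were also used side by side. In Hnrnpk a pair of acceptors 60 bases apart gave the longer intron in 29.0% and 31.1% of counts. In Hnrnpc a pair of donors 39 bases apart gave the longer intron in 60.8% and 52.4%. Acceptors 3 bases apart gave the longer intron in 24.1% and 23.9% in Srsf10, and in 88.5% and 80.3% in Srsf5.

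**Figure D5:**
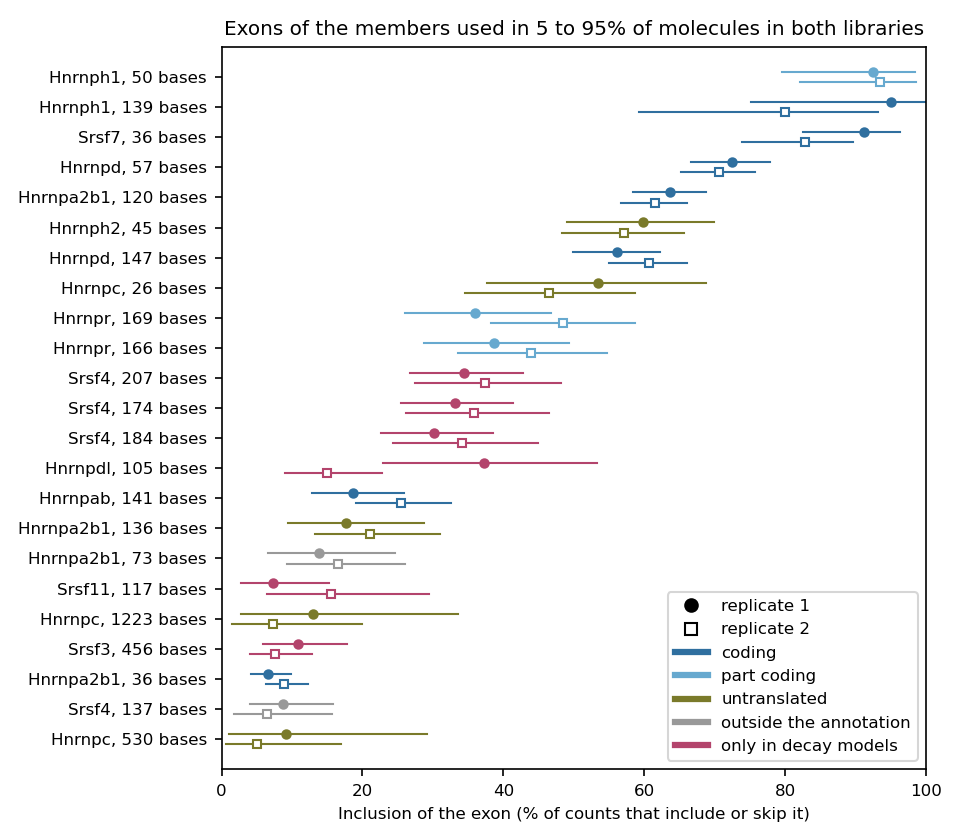
Inclusion in percent of 23 of the 24 member exons that are included in 5 to 95% of informative counts in both libraries, one row an exon named by gene and length in bases, with 95% Clopper-Pearson intervals, filled circles for replicate 1, open squares for replicate 2 and colour for the annotation. Mean inclusion runs from 7.05% for the 530-base exon of Hnrnpc to 93.0% for the 50-base exon of Hnrnph1, and the intervals of the 2 libraries overlap for each exon shown except the 105-base exon of Hnrnpdl.

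By class of model, 61.2% of member counts in replicate 1 and 60.9% in replicate 2 lay on fully annotated models (Known). New combinations of annotated splice sites (NIC) held 18.7% and 16.5%, models with a new splice site (NNC) 4.40% and 5.46%, incomplete matches (ISM) 13.4% and 14.7% and genomic models, which do not follow annotated splicing, 2.26% and 2.51%. In the other protein-coding genes NIC models held 7.35% and 6.57%. An entire annotated coding sequence lay in 66.7% and 65.1% of member counts. It lay in 96.4% and 91.4% of Srsf2 counts, in 45.6% and 47.0% of Srsf7 counts, and in none of those of Hnrnpk and Hnrnpm.

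Of the NIC counts of the members, 559 of 919 in replicate 1 and 609 of 935 in replicate 2 were those of Hnrnpk, the gene with the highest level. The same intron chain could be classed differently in the 2 libraries. An Hnrnpk chain with 140 and 169 counts was NIC in replicate 1 and NNC in replicate 2. Another with 78 and 71 counts was the reverse, so the split between NIC and NNC partly reflects such labels. Of all Hnrnpk counts, 642 of 692 in replicate 1 (92.8%) and 779 of 846 in replicate 2 (92.1%) lay on models with 1 intron that the annotation does not hold. The annotation has a coding microexon of 16 bases, chr13:58393853-58393868 on the - strand, in 8 models, and it had 0 counts in both libraries. The models of the reads instead extend the exon before it by 16 bases, chr13:58394060-58394075, and skip the microexon. The intron that follows starts with GT and ends with AG. The junctions are shown with 20 bases of the exon on either side in lower case and the 16 bases that differ in capitals, all as the mm10 reference reads at these places.
Hnrnpk as annotated: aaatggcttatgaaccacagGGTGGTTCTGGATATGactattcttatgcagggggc
Hnrnpk as modelled from the reads: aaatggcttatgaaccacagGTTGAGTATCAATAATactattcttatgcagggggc

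Of the 16 bases, 8 are identical at the same position. Read in codons from its first base, the modelled segment holds the stop codon TAA, and the annotated segment holds none. Whether that is the coding frame was not tested. The decay share does not count such a stop. The counts with neither segment were 14 and 18. The tables hold no read sequences, so which of the 2 segments the molecules carried was not tested. The 4 models of Hnrnpk that lead had 326 and 399, 140 and 169, 78 and 71, and 23 and 48 counts, and another had 18 and 25. The share of each of the first 2 in the gene was nearly equal in the libraries, 47.1% and 47.2% for the first and 20.2% and 20.0% for the second.

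Over all members, 91 NIC or NNC intron chains in 25 genes were found in both libraries, with 957 and 1035 counts (19.5% and 18.3% of member counts). Of these, 31 held an entire annotated coding sequence and 11 a poison exon. The 8 with the most counts were 5 of Hnrnpk, that of Srsf4 with the poison exons, 1 of Srsf5 and 1 of Hnrnpa2b1. The Srsf5 chain lacks 1 intron of the leading annotated coding model and has no intron of its own. It had 32 counts in replicate 1 and 14 in replicate 2, or 27.1% and 7.49% of the gene, against 24 and 65 counts of that coding model. The chain was thus the leading one in replicate 1 and not in replicate 2. The Hnrnpa2b1 chain had 21 and 18 counts and keeps the entire coding sequence. The leading intron chain was the same in both libraries in 24 of 32 members, and in no member was it annotated as a decay or retained-intron model or did it hold a poison exon. The members without the same chain include Hnrnpa0 and Hnrnpul2, whose leading chains had at most 1 count. The same was not counted over other genes. The Srsf5 chain that led in replicate 1 holds no entire annotated coding sequence. It is not in the decay share, which counts retained introns by annotated type only.

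Other genes of the pathway were read beside the members. Of 12 kinases and phosphatases that act on SR proteins, none was called higher and 1, Ppp1ca, lower in replicate 1. Ppp1ca, a catalytic subunit of protein phosphatase 1, had 512 CPM in replicate 1 and 691 CPM in replicate 2 (log2 ratio -0.43, adjusted p = 1.1e-05 by the exact test). Srpk3, the muscle-specific SR protein kinase, had 574 and 530 CPM and was second to Ppp1ca in this list by the mean, but above it in replicate 1. None of the 18 SR-related proteins was called, and the highest were Ddx39b, an export helicase, with 262 and 258 CPM and Rnps1, a junction complex protein, with 122 and 136 CPM.

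Of 21 genes of splice site recognition, none was called higher and 1 lower in replicate 1, Snrpc of the U1 particle, with 28 and 57.5 CPM (log2 ratio -1.02, adjusted p = 0.023 by the exact test). The highest were Snrpb, a core Sm protein, with 250.3 and 317 CPM and Sf3b1 of the U2 particle with 155 and 111 CPM. Of 17 factors of nonsense-mediated decay and the junction complex, 16 were tested, and 1, Upf1, was called higher and none lower. Upf1, the helicase at the centre of the pathway, had 99.1 CPM in replicate 1 and 59.4 CPM in replicate 2 (log2 ratio 0.73, adjusted p = 0.021 by the exact test). Eif4a3 was the highest of this list with 216 and 231 CPM, ahead of Upf1.

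Of 32 other splicing regulators, Taf15 had no counts, 28 were tested, and 1 was called higher and 1 lower in replicate 1. Rbm5 had 60.1 and 20.5 CPM (log2 ratio 1.53, adjusted p = 0.00023 by the exact test). Ybx1, a cold-shock RNA-binding protein, had 478 and 791 CPM (log2 ratio -0.73, adjusted p = 1.1e-16 by the exact test). Ybx3 had 843 and 889 CPM, above every SR and hnRNP gene. The decay share of the lists, taken over their summed counts, was 3.05% and 2.64% for the kinases and phosphatases, 4.08% and 5.34% for the SR-related proteins, 1.06% and 1.54% for splice site recognition, 0.427% and 0.313% for the decay factors and 3.78% and 3.66% for the other regulators. These sums are weighted to the genes with the most counts, and single genes of the lists had decay shares above that of Srsf4 on average. Clk1, a kinase of SR proteins, had 52.6% and 65% (10 of 19 and 13 of 20 counts), Prpf4b 48.4% and 37.9%, Clk4 38.5% and 40% and Rbmx 46.8% and 36%. Luc7l had 26.7% and 45.5%, and Rbm4b, with only 10 and 5 counts, had 30% and 60%. These genes were named after their values were seen.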

How the data were processed

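Long-read RNA-seq of 2 gastrocnemius libraries was analysed. Per the file headers and the readme texts beside them, the authors deposited raw counts of reads per transcript model in the TALON format, on mm10 with the GENCODE M21 annotation, with a table of model exons; no aligner, tool version or filter is stated there. The members and all gene lists were chosen with earlier results of these data known.

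Counts were summed per annotated gene over all classes of model and divided by the annotated gene counts of the library (998659 in replicate 1, 1026257 in replicate 2) to give CPM. Log2 ratios are replicate 1 over replicate 2 with 0.5 added to each count. Genes with at least 10 counts in sum, and genes or exons with at least 20 counts in each library, were tested with two-sided Fisher's exact tests (scipy 1.17.1) and Benjamini-Hochberg adjustment over all of them at 0.05. These cover counting error only; no test of a group is possible with 2 libraries (smallest two-sided p 0.5). Intervals are 95% Clopper-Pearson intervals. Sequences are from the GENCODE M21 transcripts. A cassette exon is not reported here by itself and stands only in the counts of exons. Pseudogenes were matched to members with BLAST+ 2.17.0. Scripts were tested on simulated data with known changes.

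All 32 members are accounted for. Values in full were given for the 8 highest members, the lowest, the 10 highest decay shares, every call, members with cassette exons between 5 and 95%, and the 8 unannotated chains with the most counts; from the other lists, the 2 highest, those without counts and those called. Alternatives were TMM (edgeR 4.0.16) and DESeq2 1.42.0 size factors, edgeR's exact test with preset variation, other minimums, classes and decay definitions.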

Additional observations from a re-analysis of the deposited data

Results flagged for a closer look

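A pair of signals lay outside the counts of the members themselves, above the 3 counts that a count of 0 allows. Pseudogene copies of Hnrnpa3 held 78 counts in replicate 1 and 128 in replicate 2, and with them added Hnrnpa3 would have 215 and 299 counts, a log2 ratio of -0.44 (adjusted p = 0.011 by Fisher's exact test). Unannotated models antisense to Tra2b held 30 counts in replicate 1 and 45 in replicate 2, more than the 14 and 23 counts of Tra2b. Antisense models of this kind lay over 26 of the 32 members, with 212 and 394 counts in all. The share of all genes with such models was not determined, so this count cannot be read as particular to the members.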

How the results depend on the processing

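The count of 7 member genes called between libraries was 7 with TMM, with DESeq2 size factors, without a count minimum and with 50 counts in sum, and 6 with Known, NIC and NNC classes only. The same genes were called under the first 3; with 50 counts 6 of the original calls were kept and with those classes 5, and Hnrnpu entered both times. Over all genes the share called was 9.63%, 9.33%, 5.05%, 18.3% and 10.1% in the same order. The members' count was 1 with edgeR's exact test at a preset variation of 0.1, 0 at 0.2, and 1 with a log2 ratio of at least 1 required, beside 1.56%, 0.508% and 3.15% of all genes. Adding counts held under other identifiers, an alternative chosen after seeing the data, gave 7, of which 6 were among the original calls, with Hnrnpa3 in place of Hnrnpul2. Over the called genes 40 of 61 single values kept their call, 21 lost it and none changed direction. The decay share of the members, 3.12% on average, was 1.61% with annotated types only, 2.40% without the retained_intron type, 0.723% with that type only, 4.28% with introns found in decay models only added, 24.1% with exons that hold a whole intron of a coding model added, 3.61% with Known, NIC and NNC classes only, and 2.33% without Srsf4, which was chosen after seeing the data. Under each of these definitions over all 32 members, the members' share lay above that of the other protein-coding genes, which was 0.795%, 0.506%, 0.617%, 1.32%, 8.29% and 1.24% in the same order. With the retained_intron type only, members had 0.652% and 0.794% and the other genes 0.569% and 0.665%, so these ranges overlapped. Other genes with an annotated model of this kind were not set apart under these alternatives. By gene, the definition moved shares and their order. Among the 10 highest members, 33 of 90 single values moved by more than the spread between libraries. With annotated types only Srsf4 was at 0.327%, Srsf9 at 0.549% and Srsf11 at 2.65%. With exons that hold a whole intron of any coding model added, untranslated introns included, Srsf1 was at 99.4% and Srsf5 at 86.0%. Leaving out a library gave 2.90% to 3.34% for the share and 4916 to 5519 CPM for the summed level. No alternative gave a called share or exon. Comparisons between libraries cannot leave one out. No paired analysis was possible because there is 1 group. Depth limits the shares: for Hnrnpm, with 24 and 35 counts and none on decay models, the intervals reached 14.2% and 10.0%.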
